A study of Mus musculus with 4 samples.

Results

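Sprr1a and 8 genes of the gp130 cytokine axis were followed across ventricle libraries of WT mice and of mice lacking the nucleotide receptor P2Y6. The 9 genes are Sprr1a, the ligands Lif, Ctf1, Clcf1 and Osm, the receptor chains Lifr and Osmr, the transcription factor Stat3 and its feedback inhibitor Socs3. They were taken by gene symbol from the 46603 genes of the deposited table, and they were selected with their levels in these libraries already known. Their levels and ratios are therefore descriptions, and no test was applied to them.

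The mice were C57Bl6/J animals aged 8 to 12 weeks, either WT or P2Y6-null (here KO). They received either saline or isoproterenol, a beta-adrenergic agonist that provokes growth of the heart, at 50 mg/kg/day, injected into the peritoneum on each of 7 days. The 4 groups were WT with saline, WT with isoproterenol, KO with saline and KO with isoproterenol, and each gave 1 messenger RNA library of heart ventricles. The labels do not say whether the null allele is lost in all cells, nor how many hearts were used for a library.

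Cytokines of the interleukin-6 family signal through gp130, a receptor chain encoded by Il6st that most cells carry. Gp130 pairs with Lifr for leukaemia inhibitory factor and cardiotrophin-1, and with Osmr for oncostatin M; Janus kinases bound to the paired chains then phosphorylate STAT3, which enters the nucleus and switches on genes that include its own inhibitor Socs3. In the heart this pathway is known for cardiomyocyte survival and hypertrophy, and Sprr1a, first known from the cornified envelope of skin, is a stress-induced gene of cardiomyocytes that these cytokines can raise.

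The upstream sequences of 3 members are shown because they hold letters bound by STAT or AP-1 factors. Windows from 250 bases before to 50 bases after the start of each gene came from RefSeq (GRCm38.p6), in which 7 of the 9 members matched and gave 8 windows, since Lifr has 2. In the 250 bases before the start, TTCNNNGAA (the STAT letters), TGANTCA (the AP-1 letters) and TATAAA (the TATA letters) were searched on both strands, and no 2 of the printed matches overlap. Capitals mark the matches, each line reads 5′ to 3′ on the strand of the gene, and bases inside annotated exons were left off. The Socs3 line was chosen by its STAT letters, and the other two lines were added after the sequences and values had been seen.

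Sprr1a (chr3:92485896-92486131, minus strand): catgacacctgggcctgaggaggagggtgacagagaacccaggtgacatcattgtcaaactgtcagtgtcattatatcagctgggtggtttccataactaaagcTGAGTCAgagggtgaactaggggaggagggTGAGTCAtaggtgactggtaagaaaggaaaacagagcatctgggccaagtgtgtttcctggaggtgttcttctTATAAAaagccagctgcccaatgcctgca
Socs3 (chr11:117969452-117969616, minus strand): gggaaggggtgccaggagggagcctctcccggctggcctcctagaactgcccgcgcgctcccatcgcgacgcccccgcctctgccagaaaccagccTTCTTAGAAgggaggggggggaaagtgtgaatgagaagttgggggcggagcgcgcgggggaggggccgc
Lif (chr11:4257318-4257556, plus strand): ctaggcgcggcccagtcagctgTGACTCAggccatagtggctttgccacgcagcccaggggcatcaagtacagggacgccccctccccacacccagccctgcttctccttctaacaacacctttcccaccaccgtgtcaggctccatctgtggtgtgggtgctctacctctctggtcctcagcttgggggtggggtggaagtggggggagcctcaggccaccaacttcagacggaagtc

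Upstream of Sprr1a, TGAGTCA occurred 2 times, with first bases 146 and 116 bases before the start, and TATAAA occurred 43 bases before it. Of 32851 windows of all genes, 6.75% held TGANTCA, 0.338% held it 2 or more times and 12.4% held TATAAA. For Socs3, TTCTTAGAA began 154 bases before the RefSeq start, and 7.02% of all windows held TTCNNNGAA. That stretch lies inside the Socs3 gene as GENCODE, used here for gene positions, annotates it (chr11:117966079-117970047), because the RefSeq start lies downstream of the GENCODE 5′ end. The windows of Osmr and Lifr also lie inside their GENCODE genes. Upstream of Lif, TGACTCA began 228 bases before the start. None of the 3 motifs was found in those 250 bases for Ctf1, Osmr, Stat3 or either window of Lifr. These matches are letters in a window and were not tied to binding by any measurement here.

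The libraries held 18771198 to 25637369 reads in the listed genes, and mitochondrially encoded transcripts took 22.5% to 28.9% of them, least in the treated KO library. P2ry6, the deleted gene, had 131 and 122 reads in the WT libraries and 13 and 10 in the KO libraries, summed over the whole gene, and which exons the null allele lacks is not stated. Levels below are the deposited CPM (a gene's reads per 1000000 of the library), and the whole reads behind them were recovered. Folds are ratios of reads after TMM scaling, which centres the bulk of the genes, each with a 95% counting interval in parentheses. Of the 14301 genes that averaged at least 10 reads, called the tested genes, one counts as higher or lower where its whole interval lies beyond 1.5-fold. With 1 library per group no replicate spread could be measured: the intervals cover counting error only, and each ratio compares a pair of libraries, not the conditions. Cardiomyocyte markers, the 9 genes of the list including Myh6 and Tnnt2, summed to 61018 to 74918 CPM, so the labelled tissue showed its defining genes in the 4 libraries.

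In WT ventricles with isoproterenol, Sprr1a was far higher than with saline and Ctf1 was lower, while Lif, Lifr, Osmr, Socs3 and Stat3 were not counted in either direction. In KO ventricles with isoproterenol, Sprr1a was higher by a far greater ratio, Osmr was also higher, and Ctf1 was again lower. Between the saline libraries of both genotypes no member was counted. Between the treated libraries, Sprr1a, Lif, Osmr and Socs3 were higher in the KO library.

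Of the 9 members, 7 reached a mean of 10 reads, Sprr1a only through its treated libraries, while Osm (mean 4 reads) and Clcf1 (mean 2 reads) did not. In WT, 1 of the 7 was higher, beside 0.860% of all tested genes, and 1 lower, beside 0.797% (1.66% in either direction), and the median log2 ratio of the 7 was 0.05. In KO, 2 were higher, beside 7.09% of all tested genes, and 1 lower, beside 4.22% (11.3% in either direction), and the median was 0.80. Between the saline libraries 0 of 7 were counted, beside 0.273% of all tested genes higher and 0.217% lower (0.489% together), with a median of 0.00. Between the treated libraries 4 were higher, beside 4.20% of all tested genes, and 0 lower, beside 1.82% (6.01% together), with a median of 0.87. The difference of the isoproterenol responses (the log2 ratio in KO minus that in WT) passed 1.5-fold in 1 member, Sprr1a, beside 3.82% of all tested genes in that direction, 1.73% in the other and 5.55% in either, with a median of 0.71. The median over all tested genes was 0.00 in each of these 5 comparisons. Because the members were chosen on these values, nothing is read from their counts.

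**Figure D1:**
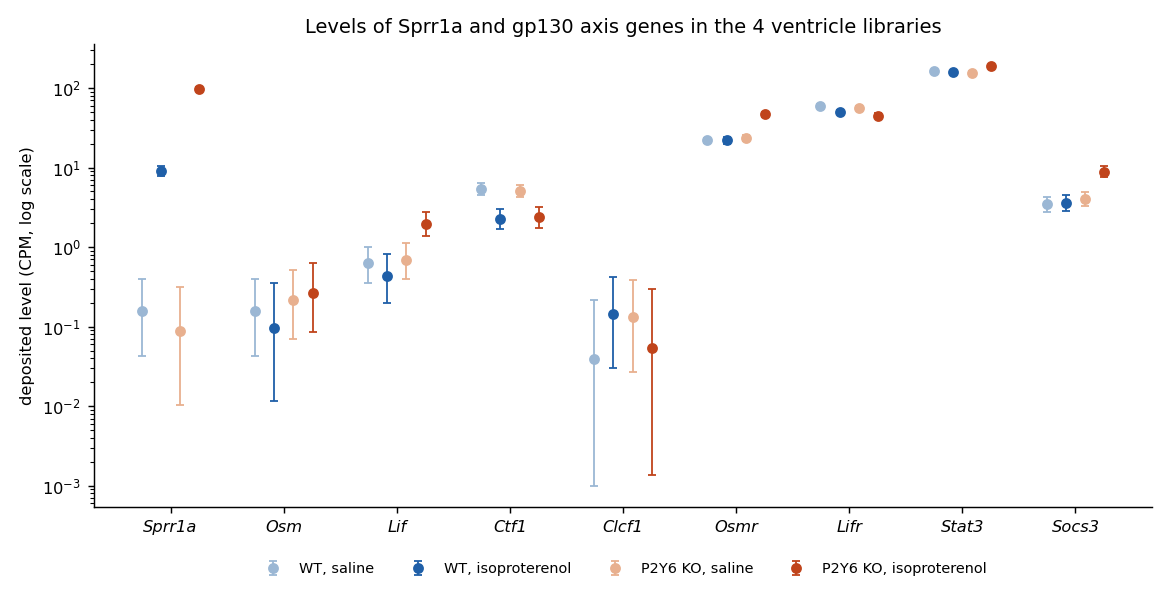
Deposited level (CPM, log scale) of the 9 members in each of the 4 libraries, with 95% Poisson counting intervals as bars. Sprr1a spans 0.0871 to 97.9 CPM, Stat3 stays between 156 and 187 CPM, and Osm and Clcf1 rest on 1 to 5 reads per library.

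Among the ligands, Lif (ENSMUSG00000034394, chr11:4257557-4272514 in GRCm38), leukaemia inhibitory factor, had 16 reads in WT with saline, 9 in WT with isoproterenol, 16 in KO with saline and 37 in KO with isoproterenol. These are 0.624, 0.434, 0.697 and 1.97 CPM. The treated KO library was the highest and the other three lay close together at low depth. Lif was 2.45-fold higher (1.35 to 4.80) with isoproterenol in KO, 1.33-fold lower (0.566 to 3.49) in WT and 3.76-fold higher (1.86 to 9.23) in the treated KO than in the treated WT library. The WT ratio was within counting error of no change. The difference of the log2 responses was 1.70 (0.28 to 3.13), which excluded no difference but did not pass 1.5-fold. Scaled by total reads instead of TMM, the KO ratio of Lif was 2.78 (1.54 to 5.45) and would be counted as higher.

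Ctf1 (ENSMUSG00000042340, chr7:127712736-127718192), cardiotrophin-1, a ligand named for its action on cardiomyocytes, had 138 reads in WT with saline, 47 in WT with isoproterenol, 117 in KO with saline and 45 in KO with isoproterenol, the order kept for all series of 4 values below. Its levels were 5.38, 2.27, 5.09 and 2.40 CPM. Both saline libraries lay above both treated libraries. Ctf1 was 2.23-fold lower (1.60 to 3.20) with isoproterenol in WT. In KO it was 2.40-fold lower (1.70 to 3.48), or 2.11-fold lower (1.49 to 3.07) by total reads, which falls just short of the threshold. The genotypes did not differ beyond counting error, with a ratio of 1.02 (0.792 to 1.32, lower in KO) under saline and 1.10 (0.713 to 1.69, lower in KO) under isoproterenol, and the latter turned to 1.06-fold higher by total reads. Ctf1 overlaps its opposite-strand neighbour Ctf2 by 87 bases, and the strand setting of the counting is not given in the sources used here. Ctf2 itself had at most 5 reads in a library.

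Osm, oncostatin M, the ligand that macrophages and neutrophils are known to release, had 4, 2, 5 and 5 reads in the same order (0.156, 0.0965, 0.218 and 0.266 CPM). Its 3 steps between neighbouring libraries all held no change, the widest being 1.38 (0.219 to 16.9) from WT isoproterenol to WT saline. Osm lies 16530 bases from Lif on the same strand of chromosome 11 (chr11:4236420-4241026). Clcf1, a ligand of the CNTF receptor, had 1, 3, 3 and 1 reads. Clcf1 was at or under the floor of 3 reads in each library, so no fold is given, and a difference in either ligand was not detectable at this depth.

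Other listed ligands were also low. Il6, the founding member, had 1, 0, 9 and 14 reads, Il11, a fibroblast cytokine, 1, 2, 1 and 5, and Cntf 3, 2, 1 and 0. Il6 reads lay mostly in the KO libraries, and the saline pair differed by 7.32-fold (1.44 to 456, higher in KO) on 1 and 9 reads. Of the 6 other ligands listed, 1 averaged 10 reads or more, Ebi3, and it was not counted in any comparison.

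Of the receptor chains, Osmr (ENSMUSG00000022146, chr15:6813577-6874969), the chain that pairs with gp130 for oncostatin M, had 561, 456, 542 and 875 reads. Its levels were 21.9, 22.0, 23.6 and 46.6 CPM. The treated KO library stood alone, and no neighbours among the other three differed beyond counting error. Osmr was 1.74-fold higher (1.56 to 1.94) with isoproterenol in KO and 1.06-fold (0.937 to 1.20) in WT. Between the treated libraries it was 1.83-fold higher (1.63 to 2.05) in KO, and between the saline libraries 1.12-fold (0.990 to 1.26). The difference of its log2 responses was 0.71 (0.48 to 0.95). That interval excluded no difference without passing 1.5-fold, which it did pass by total reads at 0.97 (0.74 to 1.21).

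Lifr (ENSMUSG00000054263, chr15:7090614-7197489), the chain for leukaemia inhibitory factor and cardiotrophin-1, lies 215644 bases from Osmr on the opposite strand. It had 1512, 1042, 1295 and 842 reads, or 59.0, 50.3, 56.4 and 44.9 CPM. The saline libraries were the highest and did not differ from each other beyond counting error, and the treated KO library was the lowest. With isoproterenol Lifr was 1.11-fold lower (1.02 to 1.20) in WT and 1.43-fold lower (1.31 to 1.56) in KO, neither past 1.5-fold. Between the treated libraries it was 1.30-fold lower (1.19 to 1.42) in KO, and the difference of its log2 responses was -0.36 (-0.53 to -0.19). By total reads that difference was -0.10 (-0.27 to 0.07), which includes none.

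Within a library, scaling cancels, so the 2 chains were also set against each other, a comparison chosen after the values were seen. Osmr took 27.1% (25.2% to 29.0%, Clopper-Pearson) of the reads of Osmr and Lifr in WT with saline, 30.4% (28.1% to 32.8%) in WT with isoproterenol and 29.5% (27.4% to 31.6%) in KO with saline. In KO with isoproterenol it took 51.0% (48.6% to 53.4%). Per kilobase of exon, Osmr stood at 0.330, 0.389, 0.372 and 0.924 times the level of Lifr in the order used above. The chains thus came near to equal levels per length in the treated KO library, and in the other three Osmr remained below 0.4 of Lifr.

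**Figure D2:**
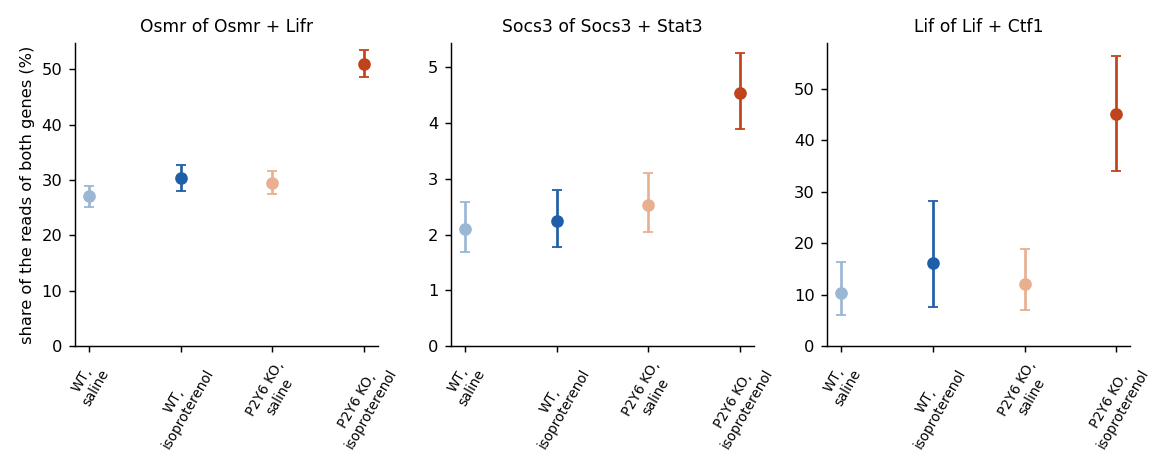
Share (%) of Osmr in the reads of Osmr and Lifr, of Socs3 in those of Socs3 and Stat3 and of Lif in those of Lif and Ctf1, in each library, with 95% Clopper-Pearson intervals as bars and axes starting at 0. The treated KO library holds the highest share in each panel (51.0%, 4.53% and 45.1%), and its bar overlaps no other in any panel.

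Il6st, which encodes gp130 itself, was the highest per length of the receptor chains measured, at 19.0, 16.3, 20 and 21 CPM per kilobase, against 4.16 to 5.47 for Lifr and 1.81 to 3.85 for Osmr. It had 5418, 3739, 5096 and 4368 reads. Its ratios were near 1: 1.11-fold lower (1.06 to 1.16) with isoproterenol in WT and 1.08-fold lower (1.04 to 1.13) in KO, where total reads gave 1.05-fold higher instead. The interleukin-11 receptor chain Il11ra1 (1202, 833, 1020 and 1026 reads) was next in level per length, at 8.99 to 12.2 CPM per kilobase. It was 1.10-fold lower (1.01 to 1.21) with isoproterenol in WT and 1.08-fold higher (0.994 to 1.18) in KO. Il6ra (186, 122, 178 and 143 reads), the interleukin-6 receptor chain, was within counting error of no change in both. Of 7 other chains listed, 5 were tested, with median log2 ratios of -0.18 in WT and -0.11 in KO. With isoproterenol 0 were counted in WT and 1 was higher in KO, beside 7.09% of all tested genes. That chain was Il27ra, which pairs with gp130 for interleukin-27: it had 107, 72, 76 and 151 reads, was 2.14-fold higher (1.62 to 2.86) with isoproterenol in KO and 1.13-fold lower (0.835 to 1.55) in WT, and its log2 responses differed by 1.28 (0.69 to 1.86).

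Stat3 (ENSMUSG00000004040, chr11:100885098-100939540), the factor that carries the signal to the nucleus, had 4143, 3270, 3576 and 3516 reads. Its levels were 162, 158, 156 and 187 CPM, and after scaling no neighbouring libraries in the order of levels differed beyond counting error. Its messenger was 1.03-fold (0.986 to 1.08) with isoproterenol in WT and 1.06-fold (1.01 to 1.11) in KO. By total reads it was 1.02-fold lower (0.978 to 1.07) in WT and 1.20-fold higher (1.15 to 1.26) in KO. Messenger levels say nothing of the phosphorylation by which STAT3 works, which was not measured. Stat3 overlaps Stat5a on the opposite strand by 72 bases.

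Socs3 (ENSMUSG00000053113, chr11:117966079-117970047), which STAT3 induces and which then blocks gp130 and its kinases, had 89, 75, 93 and 167 reads, or 3.47, 3.62, 4.05 and 8.90 CPM. As for Osmr, the treated KO library stood above the other three, whose neighbours did not differ beyond counting error. Socs3 was 1.93-fold higher (1.49 to 2.52) with isoproterenol in KO, just short of the threshold, and 1.10-fold (0.799 to 1.52) in WT. By total reads the KO ratio was 2.19 (1.69 to 2.86) and would be counted. Between the treated libraries Socs3 was 2.11-fold higher (1.61 to 2.82) in KO, and between the saline libraries 1.21-fold (0.893 to 1.63). The difference of its log2 responses was 0.81 (0.24 to 1.38), short of 1.5-fold. Its share of the reads of Socs3 and Stat3 was 2.10% (1.69% to 2.58%), 2.24% (1.77% to 2.80%), 2.53% (2.05% to 3.10%) and 4.53% (3.89% to 5.26%) in the order used above. The Socs3 window shown above was the only one of the 8 member windows with the STAT letters.

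The 11 listed Janus kinases, STATs and adaptors were all tested, with median log2 ratios of -0.01 in WT and -0.03 in KO, and 0 were counted in WT. In KO 1 was lower, Stat5a, beside 4.22% of all tested genes. Stat5a had 885, 520, 773 and 355 reads and was 2.02-fold lower (1.78 to 2.30) with isoproterenol in KO and 1.30-fold lower (1.17 to 1.45) in WT. The 11 other feedback inhibitors, among them Socs1, Socs2 and Cish, were tested and 0 were counted in any of the 5 comparisons, with log2 ratios from -0.28 to 0.66 and a median of 0.17 for isoproterenol in KO (0.02 in WT). By total reads 1 of them, the phosphatase gene Ptpn6, was counted between the treated libraries, at 1.96-fold higher (1.59 to 2.44) in KO.

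**Figure D3:**
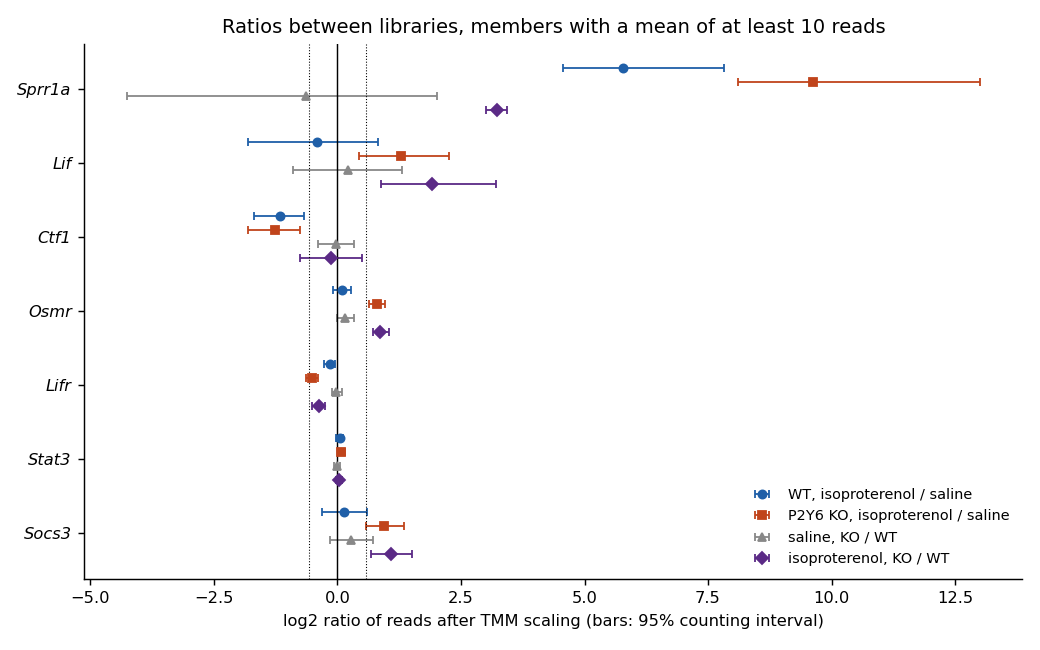
Log2 ratios of the 7 members that averaged at least 10 reads, after TMM scaling, in the 4 comparisons of a pair of libraries, with 95% counting intervals as bars and dotted lines at 1.5-fold. Sprr1a lies far to the right in both isoproterenol comparisons (5.78 and 9.63), Ctf1 to the left in both, and Osmr, Socs3 and Lif are to the right in the comparisons that hold the treated KO library.

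Sprr1a (ENSMUSG00000050359, chr3:92483952-92485895, minus strand, 806 exon bases in 1 transcript) had 4 reads in WT with saline, 188 in WT with isoproterenol, 2 in KO with saline and 1838 in KO with isoproterenol. These are 0.156, 9.07, 0.0871 and 97.9 CPM. Both saline libraries were near the floor of 3 reads, the treated WT library was well above them, and the treated KO library was well above that. Sprr1a was 54.8-fold higher (23.6 to 228) with isoproterenol in WT and 793-fold higher (274 to 8188) in KO. The saline libraries differed by 1.56 (0.248 to 19.1, lower in KO), within counting error, and the treated libraries by 9.29-fold (8.01 to 10.9, higher in KO).

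The breadth of the first 2 intervals came from the 4 and 2 saline reads, while the 9.29-fold ratio rests on 188 and 1838 reads. The log2 responses differed by 3.86 (1.61 to 6.10). Per kilobase of exon Sprr1a stood at 0.194, 11.3, 0.108 and 121 CPM. In the treated KO library that was above Stat3 at 19.7, whereas in both saline libraries it was below Ctf1 at 2.95 and 2.79.

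Sprr1a sits among the small proline-rich genes of chromosome 3, 14367 bases from Sprr4 and 25231 bases from Sprr3. Of 20 other small proline-rich and cornified envelope genes, 0 reached a mean of 10 reads and 13 were at 0 in the 4 libraries, Sprr1b, Sprr3, Sprr4 and Ivl among them. The 20 summed to 0.663, 0.579, 0.740 and 2.29 CPM, and Sprr2a3 held 13 of the 43 reads in the treated KO library. The list of 11 keratinocyte and other epithelial markers summed to 3.43, 2.46, 3.05 and 3.09 CPM, with 2 tested and 0 counted. Krt5 and Krt14, which define basal keratinocytes, had 0 and 2 reads in treated WT and 0 and 1 in treated KO. The 2 tested markers, Krt10 and Trp63, had 24 and 14 reads in treated WT and 26 and 16 in treated KO, neither counted in any comparison.

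The 5 tested genes whose 4 scaled log2 values, centred on their mean, lay nearest to those of Sprr1a (Euclidean distance over the 4 libraries) were Cthrc1 at 1.69, Nrip3 at 2.81, C1qtnf3 at 3.07, Cemip at 3.09 and Spp1 at 3.54. Cthrc1, a secreted protein of activated fibroblasts, had 7, 156, 6 and 1069 reads. Spp1, the matrix protein osteopontin, had 17, 44, 7 and 717. Nearest to Osmr were Slc15a3 at 0.03, Ttll3 at 0.04, Pilra at 0.05, Il4ra at 0.06 and B4galnt1 at 0.07. Il4ra, the interleukin-4 receptor chain, had 465, 360, 451 and 720 reads. With 4 libraries, 2 of them low for Sprr1a, such distances describe a shape and nothing more.

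Genes known to respond to STAT3 were read from a list of 28, of which 25 were tested. In WT 4 were higher with isoproterenol (Timp1, Serpina3n, Mt2 and Mt1) and 0 lower, beside 0.860% and 0.797% of all tested genes. In KO 8 were higher (Timp1, Serpina3n, Saa3, Lcn2, Hp, Mt2, Lbp and Il4ra) and 2 lower (Pim3 and Cebpb, the first a survival kinase and the second a transcription factor). Over all tested genes these shares were 7.09% and 4.22%. Saa3 reached a mean of 10 reads only through the treated KO library, so its place among the 8 and among the tested genes carries no weight. The median log2 ratio of the 25 was 0.03 in WT and 0.23 in KO, against 0.00 over all tested genes. Over the 91 other pathway genes of the 7 lists, 58 were tested. Of those 58, 10.3% were counted in WT (1.66% of all tested genes) and 24.1% in KO (11.3%). The lists were drawn up with earlier results of these data known, so the shares are descriptions.

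Serpina3n, an acute-phase protease inhibitor, had 162, 1405, 217 and 6753 reads. It was 11.3-fold higher (9.63 to 13.4) with isoproterenol in WT and 33.5-fold higher (29.3 to 38.6) in KO, and its log2 responses differed by 1.57 (1.26 to 1.87). Timp1, an inhibitor of matrix metalloproteinases that fibroblasts release, had 58, 174, 49 and 1515 reads. It was 3.90-fold higher (2.90 to 5.38) in WT and 33.0-fold higher (25.1 to 45.3) in KO, with a difference of 3.08 (2.49 to 3.67). Both followed the order of Sprr1a, with the treated WT library between the saline pair and the treated KO library. The acute-phase genes Lcn2 (29, 51, 42 and 213 reads), Hp (77, 86, 36 and 152) and Saa3 (2, 1, 1 and 37) were also highest in treated KO. Lcn2 was 5.42-fold higher (3.91 to 7.81) there than with saline, and Hp was 4.51-fold higher (3.15 to 6.74).

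The list did not move as a block. Mt2, a metallothionein that binds zinc, had the larger ratio in WT: with 367, 840, 353 and 653 reads it was 2.99-fold higher (2.64 to 3.39) with isoproterenol in WT and 1.99-fold higher (1.75 to 2.28) in KO. Pim3 (1947, 1250, 1582 and 633 reads) was 2.32-fold lower (2.11 to 2.55) in KO and 1.19-fold lower (1.11 to 1.28) in WT. Cebpb (180, 115, 152 and 63 reads) was 2.23-fold lower (1.66 to 3.05) in KO, a call that was lost by total reads at 1.96 (1.46 to 2.69).

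Genes linked to oncostatin M in cardiomyocyte remodelling were few: 5 of 8 were tested. The untested genes, Reg3b, Reg3g and Dab1, had at most 1 read in a library. With isoproterenol 1 was higher and 1 lower in WT (median log2 ratio -0.14), beside 0.860% and 0.797% of all tested genes. In KO 2 were higher and 0 lower (median 0.31), beside 7.09% and 4.22%. Kit and Acta2 were tested and not counted in any comparison, with log2 ratios of -0.28 and 0.05 in KO. Tnc, tenascin C, had 70, 223, 48 and 1605 reads and was 4.15-fold higher (3.17 to 5.53) with isoproterenol in WT and 35.7-fold higher (27.1 to 49.1) in KO. Runx1, a transcription factor re-expressed in dedifferentiating cardiomyocytes, had 80, 62, 60 and 219 reads and was 3.91-fold higher (2.95 to 5.33) in KO and 1.02-fold (0.715 to 1.43) in WT. Nes, the intermediate filament nestin, had 1911, 816, 1357 and 1563 reads. It was 1.79-fold lower (1.65 to 1.95) in WT and 1.24-fold higher (1.15 to 1.34) in KO, and its log2 responses differed by 1.15 (0.99 to 1.31).

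**Figure D4:**
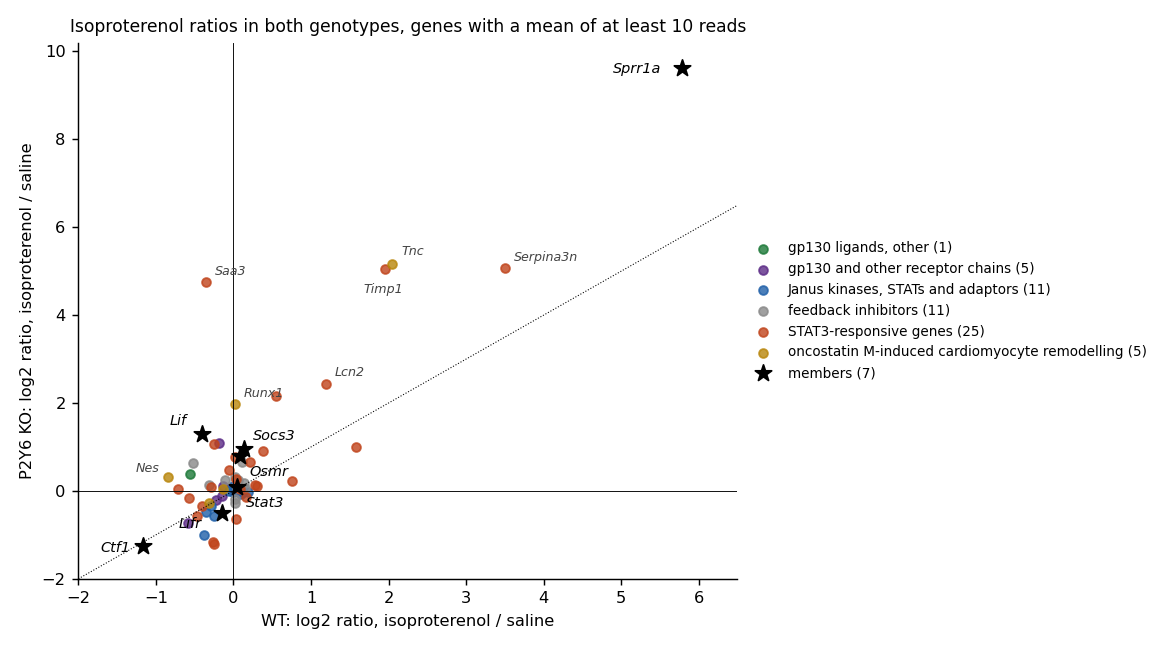
Log2 ratio with isoproterenol in WT (x) and in KO (y) for the 58 tested genes of 6 pathway lists (points) and the 7 tested members (stars), with a dotted line of equal ratios. Sprr1a, Serpina3n, Timp1 and Tnc lie to the upper right and above the line, Ctf1 lies at the lower left near it, and Stat5a of the kinase and STAT list lies at -0.38 and -1.01.

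Markers of cell types moved along with the treated KO library, and in ventricle tissue a change in the number of cells of a type cannot be told apart from a change in RNA per cell. The 10 fibroblast markers summed to 3299, 4419, 2762 and 9860 CPM. The rise in KO lay mainly in the collagen genes Col1a1, Col1a2 and Col3a1. They stood at 132, 180 and 300 CPM with saline and at 1634, 1963 and 3815 CPM with isoproterenol. Pdgfra (1.44-fold higher, 1.33 to 1.56) and Tcf21 (1.54-fold higher, 1.27 to 1.88) were not counted in KO, and Gsn was lower. The sum is thus not a measure of fibroblast number. With isoproterenol 4 were higher and 0 lower in WT, and 7 were higher and 1 lower in KO, with median log2 ratios of 0.33 and 0.98. Of all tested genes, 0.860% were higher and 0.797% lower in WT, and 7.09% were higher and 4.22% lower in KO. The same shares stand beside the isoproterenol counts of every marker list below. The 12 macrophage markers summed to 518, 489, 463 and 1095 CPM, with 0 counted in WT and 9 higher and 0 lower in KO, and medians of -0.03 and 1.14. None of these 22 genes was at 0. The fibroblast and macrophage sums were both highest in treated KO, as were the levels of Sprr1a, Osmr, Socs3 and Lif. By deposited CPM, the neutrophil and lymphocyte sums and several others given below were highest there too, so this order of sums does not single out a cell type. Most tested neutrophil and lymphocyte markers did not follow their sums. After TMM scaling, their median log2 ratios between the treated libraries (KO against WT) were -0.44 and -0.13. Only 1 of 3 tested neutrophil and 1 of 5 tested lymphocyte markers had a ratio above 0. The fibroblast sum, like the neutrophil sum, was also above its saline value in treated WT.

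The 9 cardiomyocyte markers summed to 74918, 70441, 73877 and 61018 CPM, with 0 counted in WT and 4 lower in KO. The 10 neutrophil markers summed to 4.10, 7.24, 4.66 and 9.16 CPM, with Ly6g at 0 in the 4 libraries, 3 tested and 0 counted. The 7 endothelial markers summed to 955 to 1034 CPM with 0 counted. The 8 lymphocyte markers summed to 4.88 to 5.70 CPM with 0 counted, and the 7 of smooth muscle and pericytes to 1272 to 1418 CPM with 1 higher and 1 lower in KO. The 6 of epicardium and mesothelium summed to 11.6, 11.3, 10.4 and 19.5 CPM, with 0 counted in WT and 1 higher in KO (median log2 ratio 0.62). The 6 atrial markers summed to 250, 198, 164 and 270 CPM: 1 was higher with isoproterenol in WT and 3 were higher in KO. Under saline 2 were lower in KO than in WT, beside 0.217% of all tested genes. Between the saline libraries their log2 ratios ran from -4.36 (Bmp10) to -0.20 (Tbx5), and with isoproterenol in KO from -0.64 (Tbx5) to 6.75 (Bmp10). Whether the libraries held unequal amounts of atrial tissue was not tested. The 7 skeletal muscle markers, with Myh4 and Myog at 0 and 3 tested, summed to 1634, 1520, 1911 and 2434 CPM, with 0 counted in WT and 2 higher and 1 lower in KO. The tested genes were Ckm, Acta1 and Tnnt3, and the skeletal myosin genes Myh1, Myh2 and Myh4 did not average 10 reads. The sum thus rests on Ckm, Acta1 and Tnnt3 and was not read as skeletal muscle tissue. By deposited CPM, the epicardial, atrial and skeletal muscle sums were also highest in the treated KO library. The TMM factor was 1.096 for that library and 0.945 to 0.999 for the others. The small leads of the atrial and lymphocyte sums therefore depend on the scaling. The part of these markers in the levels of Sprr1a, Osmr, Socs3 and Lif was not tested.

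**Figure D5:**
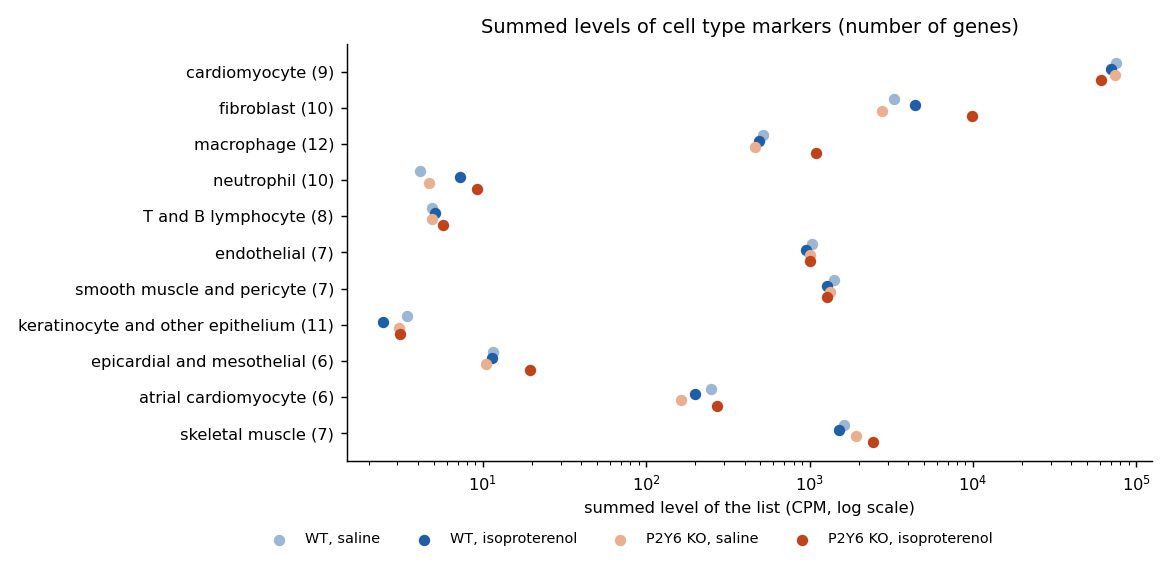
Summed level (CPM, log scale) of each list of cell type markers in the 4 libraries, with the number of genes in parentheses. Fibroblast and macrophage sums are highest in the treated KO library (9860 and 1095 CPM), cardiomyocyte sums are lowest there (61018 CPM), and endothelial sums lie together.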

How the data were processed

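Poly(A) RNA of mouse ventricles was sequenced with a stranded kit, per the labels' protocols, in 4 libraries, 1 for each genotype and treatment. The authors deposited CPM for 46603 Ensembl genes. The submitters' processing notes name HTSeq and GRCm38.p4; the aligner, the annotation release and the strand setting used are not stated there. Columns headed by genotype alone were taken as saline.

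All deposited CPM values (100%) were whole multiples of 1 read within 0.01 reads, so whole reads were recovered. Positions and exon lengths came from GENCODE M21, which matched 46005 IDs. Ratios used TMM factors (edgeR 4.0.16) from genes averaging at least 10 reads, 0.5 reads added, and exact conditional (Clopper-Pearson) 95% intervals. Differences of responses have 95% normal intervals from 4 counts. Because the unit was CPM, the additive fit over all genes was limma 3.58.1 on log2(CPM + 1), with edgeR's quasi-likelihood test on recovered reads as an alternative calling 22 genes by treatment. Since reads carried no molecular identifiers, they are not independent molecules. The intervals were checked on simulated Poisson counts scaled by total reads, and the additive fits on simulated counts with a set spread. The Poisson counts left out spread between libraries, so they check the arithmetic and not the calls.

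The members and lists were chosen with earlier results of these data known. The text names the 9 members, 6 fixed family genes, counted list genes and the 5 nearest patterns to Sprr1a and Osmr; other genes were named after their values were seen. Of the pathway lists, some genes were left out of the counts and are not reported here.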

Additional observations from a re-analysis of the deposited data

Results flagged for a closer look

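Among the members and named family genes that averaged at least 10 reads, 5 had log2 responses to isoproterenol of opposite sign in WT and KO; other list genes with such signs are not named here. Each value rests on 1 library per group, so no difference was tested over samples, and the intervals cover counting error only. For the intermediate filament gene Nes the log2 ratios were -0.84 (-0.96 to -0.72) in WT and 0.31 (0.21 to 0.42) in KO, a difference of 1.15 (0.99 to 1.31). With TMM scaling Nes was the 1 gene of the 5 with both intervals clear of no change. By total reads Il11ra1 also had both clear, at -0.22 (-0.35 to -0.09) in WT and 0.30 (0.17 to 0.43) in KO. More of the named genes then took opposite signs, among them Il6st at -0.23 and 0.07. For the receptor chain Il27ra the ratios were -0.18 (-0.64 to 0.26) and 1.09 (0.69 to 1.52), a difference of 1.28. For the acute-phase gene Saa3, with 1 or 2 reads in 3 of the libraries, they were -0.35 (-6.50 to 3.65) and 4.75 (2.75 to 10.66), a difference of 5.10 (1.35 to 8.85). The differences of Nes, Il27ra and Saa3 lay beyond 1.5-fold by their counting intervals, and those of the next 2 genes did not. For the ligand Lif the ratios were -0.41 (-1.80 to 0.82) and 1.29 (0.44 to 2.26), a difference of 1.70. For the receptor chain Il11ra1 they were -0.14 (-0.27 to -0.01) and 0.12 (-0.01 to 0.24), a difference of 0.26.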

How the results depend on the processing

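No replicate could be left out, because each group held 1 library. For the same reason there were no replicates to pair. Against TMM, total reads shifted the median log2 ratio of all tested genes by -0.08 (isoproterenol in WT), 0.18 (isoproterenol in KO), -0.05 (saline, KO against WT), 0.21 (isoproterenol, KO against WT) and 0.26 (difference of responses). The share of called genes that were higher went from 51.9% to 40.6% in WT, from 62.7% to 80.2% in KO, from 69.8% to 90.3% between the treated libraries and from 68.8% to 92.6% for the difference. By total reads the count of members for the difference was 2, Sprr1a and Osmr, beside 8.02% of all tested genes (5.55% with TMM). In KO it gave 4 higher and 0 lower, without Ctf1 and with Lif and Socs3, while over all tested genes it gave 1445 higher and 357 lower, against 1014 and 604 with TMM. Of 35 member values, 25 stayed within the counting interval of their TMM value and 10 left it under total reads, as under log2(CPM + 1) and under log2(CPM + 0.1), and 35 stayed within it under DESeq2 size factors and under TMM without mitochondrially encoded genes; no counted member changed direction under these settings. With 2-fold in place of 1.5-fold, 1 member (Sprr1a) was counted in WT (0.587% of all tested genes), 1 in KO (4.90%), 1 between the treated libraries (1.98%) and 1 for the difference (1.85%). With an interval that only excludes no change, 7 members were counted in KO (54.8% of all tested genes) and 5 for the difference (39.3%). In the additive fits over all genes, limma called 368 genes by treatment and 14 by genotype. With a pseudocount of 0.1 it called 647 and 60, with no minimum of reads 965 and 195; edgeR called 22 and 3, and DESeq2 174 and 13. The cause of these shifts was not tested. Low read numbers limit Osm and Clcf1 in each library and Sprr1a under saline.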
